A study of Rattus norvegicus with 12 samples.

Results

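The Toll-like receptors Tlr1, Tlr2, Tlr3, Tlr4, Tlr5, Tlr7 and Tlr8, with the co-receptors Cd14 and Ly96 and the adaptor Myd88, were followed in cells dispersed from the rat cervix. They were taken as the array probes that carry one of these gene names in the scanner files. Of the 10 genes listed, 9 had a probe, and 11 probes were found among 30367 probes for 26554 genes. Tlr3 and Ly96 each had 2 probes. Tlr1 had no probe under that name and was not analysed here.

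Adult female Sprague Dawley rats were perfused with saline to flush out blood, and the cervix was minced and dispersed with collagenase. Each of 12 rats gave 1 Agilent array, with 3 rats in each of 4 groups. Whole cervix was the unsorted suspension from D21 rats, killed on day 21 postbreeding before birth, or from nonpregnant (NP) rats in proestrus. Mφ-depleted cervix came from other D21 and NP rats, whose suspension was further incubated with the ED1 antibody against macrophages (Mφs) and with magnetic beads before freezing, so that the additional handling and the removal of Mφs cannot be told apart. In all groups the cells had passed through the enzyme, a filter and repeated washes, and the rats of the whole and depleted groups were different animals. Levels below are the log2 of a probe's signal minus the log2 of the 75th percentile of its array, so that 0 is the level of the 75th percentile, and levels of different probes are not compared. P-values describe the spread between these rats. In the limma fit each gene has 1 estimate of the spread, shared by the 4 groups. That estimate is drawn toward a value taken from all genes, and the SE and p-value of each difference come from the result.

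Toll-like receptors recognise conserved molecules of microbes and of damaged cells. Tlr2, Tlr4 and Tlr5 sit on the cell surface and respond to bacterial lipoproteins, lipopolysaccharide and flagellin, whereas Tlr3, Tlr7 and Tlr8 sit in endosomes and respond to RNA. Cd14 hands lipopolysaccharide to the complex of Tlr4 and Ly96 (also called MD-2), and Myd88 carries the signal of most receptors to the IRAK kinases, with Tlr3 as the exception. Monocytes, Mφs and neutrophils are the cells best known for these genes, and epithelial and stromal cells also carry several of them.

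The probes on which the results below turn were 60 bases long, and their first 30 bases are shown, in lower case throughout because nothing in them is marked. The rn4 positions come from the scanner output, which lists the probe of Tlr8 as unmapped. The probes of Tlr7, Tlr8 and Tlr3 are shown because these genes passed the test after Mφ removal, and that of Cd14 because it did not.
Tlr7 (chrX:47356167-47356226, plus strand): aagggttatcaacatctgcaatcaatggag
Tlr8 (unmapped): tctttataatgaactgtggcaagtgaatgg
Tlr3 (chr16:50126045-50126104, plus strand): tagcacttgggtctcggaattcagcacatt
Tlr3, the second probe (chr16:50126271-50126330, plus strand): ccaaataaatacatgggattcctgaggtgt
Cd14 (chr18:29374990-29375049, minus strand): atccctttttgcactctgaatcccagtcgg
The longest run of bases that one of the 11 probes shared with a probe of another gene was 15, between Ly96 and Ube2c. The Tlr7 and Tlr8 probes shared at most 13 and 14 bases in a row with a probe of any other gene.

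The removal of Mφs was checked with genes that mark these cells. Csf1r, the receptor for the Mφ growth factor CSF1, was higher in whole than in depleted cervix by 6.74 ± 0.41 on the log2 scale (SE, n = 3 rats a group) in D21 rats and by 6.68 ± 0.41 in NP rats, with limma adjusted p-values of 6.6e-06 and 1.7e-06. It was well above background on 1 of 3 depleted arrays of each kind, so that these are differences of measured signals, part of them near background. Adgre1, the F4/80 antigen, fell under the background rating on every depleted array, so that the mean measured signal of whole cervix exceeded that of depleted cervix at least 36.9-fold in D21 and at least 39.6-fold in NP rats. These bounds hold for the main processing. With normexp background correction the log2 differences of Adgre1 were 2.47 in D21 and 3.98 in NP rats. Of a list of 14 Mφ markers, 13 of 14 tested were higher in whole D21 cervix and 11 of 12 tested in whole NP cervix. Genes were tested if well above background on every array of at least 1 group compared. On every depleted array this held only for Cd68, Lyz2, Aif1, C1qa and C1qb in D21 rats and for Cd68, Aif1 and C1qb in NP rats. The other markers tested entered through the whole groups alone, so that the direction of their calls is no support. Of all genes tested, 11.9% and 16.9% were higher. The summed level of the list, as ratios to the 75th percentile, ranged from 75.5 to 89.0 in whole D21 rats against 5.21 to 6.65 in depleted ones, and from 72.7 to 119 in whole NP rats against 2.29 to 2.58 in depleted ones. Adgre1, Mpeg1 and Mrc1 were below the background rating on all depleted arrays, as were Cd163 and Cybb on those of NP rats. The exception in the list was Cd68, the transcript of the antigen that ED1 binds, whose level differed by -0.14 in D21 and by 0.54 in NP rats, with adjusted p-values of 0.882 and 0.531. Fewer cells of a type and less RNA per cell cannot be told apart in these samples.

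Markers of other cell types changed with the removal as well. Over all genes tested, limma called 1689 higher and 1502 lower of 14236 in D21 rats. In NP rats it called 2269 higher and 2122 lower of 13388. Counts of 1 or 2 markers called are too small to set against these shares. The 7 smooth muscle markers had a median log2 difference of 2.61 in D21 rats, with 5 of 7 higher in whole cervix, and of 4.42 in NP rats, with 7 of 7 higher. Of 7 fibroblast markers, 2 were higher in whole D21 cervix and 7 in whole NP cervix, with medians of 0.90 and 4.24. Immediate-early genes, which rise within minutes of stress, were lower in whole cervix for 9 of 10 tested in D21 rats and 8 of 9 tested in NP rats. Epithelial markers were lower in whole cervix for 2 of 8 in D21 and 5 of 8 in NP rats, and neutrophil markers were higher for 2 of 5 and 2 of 4 tested. Mast cell markers were higher for 3 of 4 tested in D21 rats, with a median of 3.02, and in NP rats for 2 of 3 tested with 1 lower and a median of 3.07. Of the T and NK cell markers, 1 of 3 tested was higher in whole D21 cervix and 1 of 1, Nkg7, in whole NP cervix, by 4.33. Endothelial markers were higher for 4 of 8 in D21 rats and for 2 of 7 tested, with 1 lower, in NP rats, and no B cell marker was called among 2 and 1 tested. The 7 housekeeping genes gave no call in either comparison, with medians of -0.24 and -0.07. Some of these markers were well above background throughout in 1 of the groups compared only. Cpa3, Mcpt1, Csf3r and Nkg7, and in D21 rats Tpsab1 and Fcnb, entered the test through the whole groups alone. The immediate-early gene Fosb entered through the depleted groups alone. The direction of the calls of such genes is no support, and medians that hold them rest partly on signals near background. The part of these marker shifts in the results for the receptors was not tested.

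**Figure D1:**
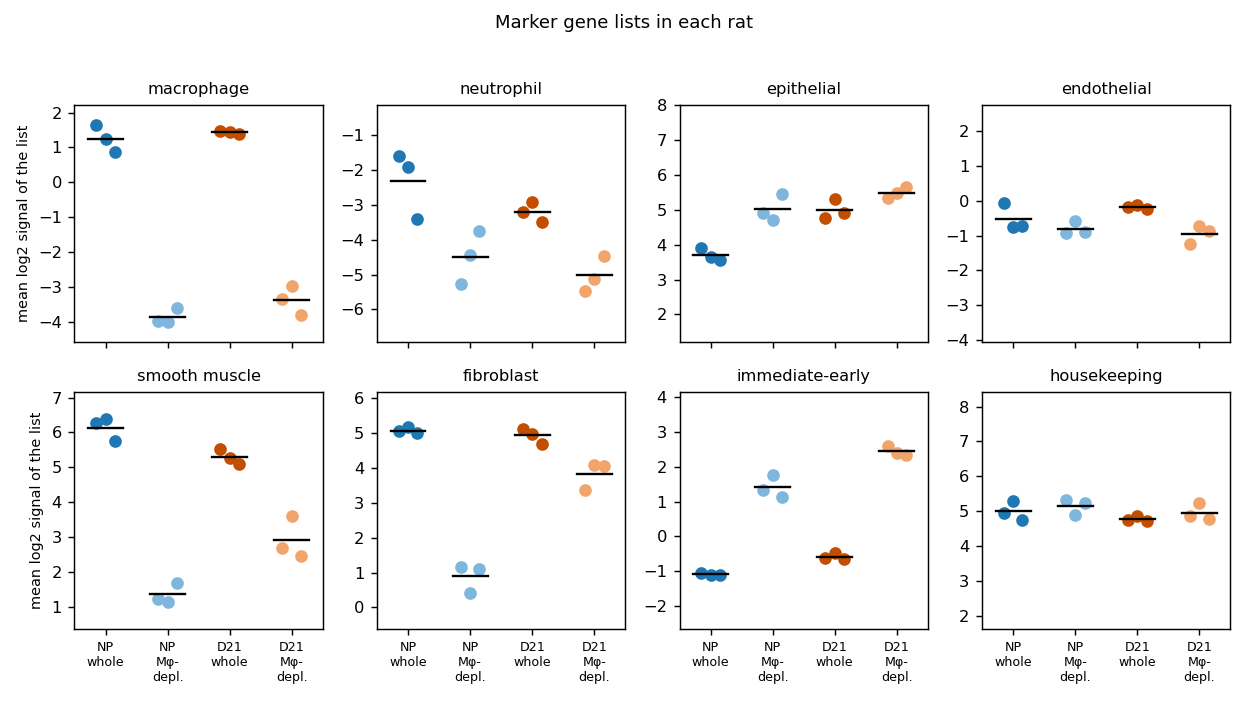
Mean log2 level of 8 marker gene lists in each of the 12 rats, scaled to the array's 75th percentile, with 1 point for each rat and a line at the group mean. The macrophage list lies between 0.86 and 1.65 in whole cervix and between -4.02 and -2.98 after depletion, the fibroblast and smooth muscle lists are also lower after depletion, and the immediate-early list is higher.

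After Mφ removal, Tlr7 and Tlr8 fell below the background rating in both D21 and NP cervix, Tlr3 fell in NP cervix, and no other member passed the test in either. By limma (adjusted p below 0.05 over all genes tested), 2 of 9 members tested were called in D21 rats, where 22.4% of 14236 genes were called, and 3 of 8 in NP rats, where 32.8% of 13388 genes were. The test took in genes rated above background on every array of at least 1 of the groups compared, so that Tlr7 and Tlr8 entered through the whole groups alone and the direction of their calls is no support. At these backgrounds the number of members called is not a result about the group, and the values of the individual genes follow.

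**Figure D2:**
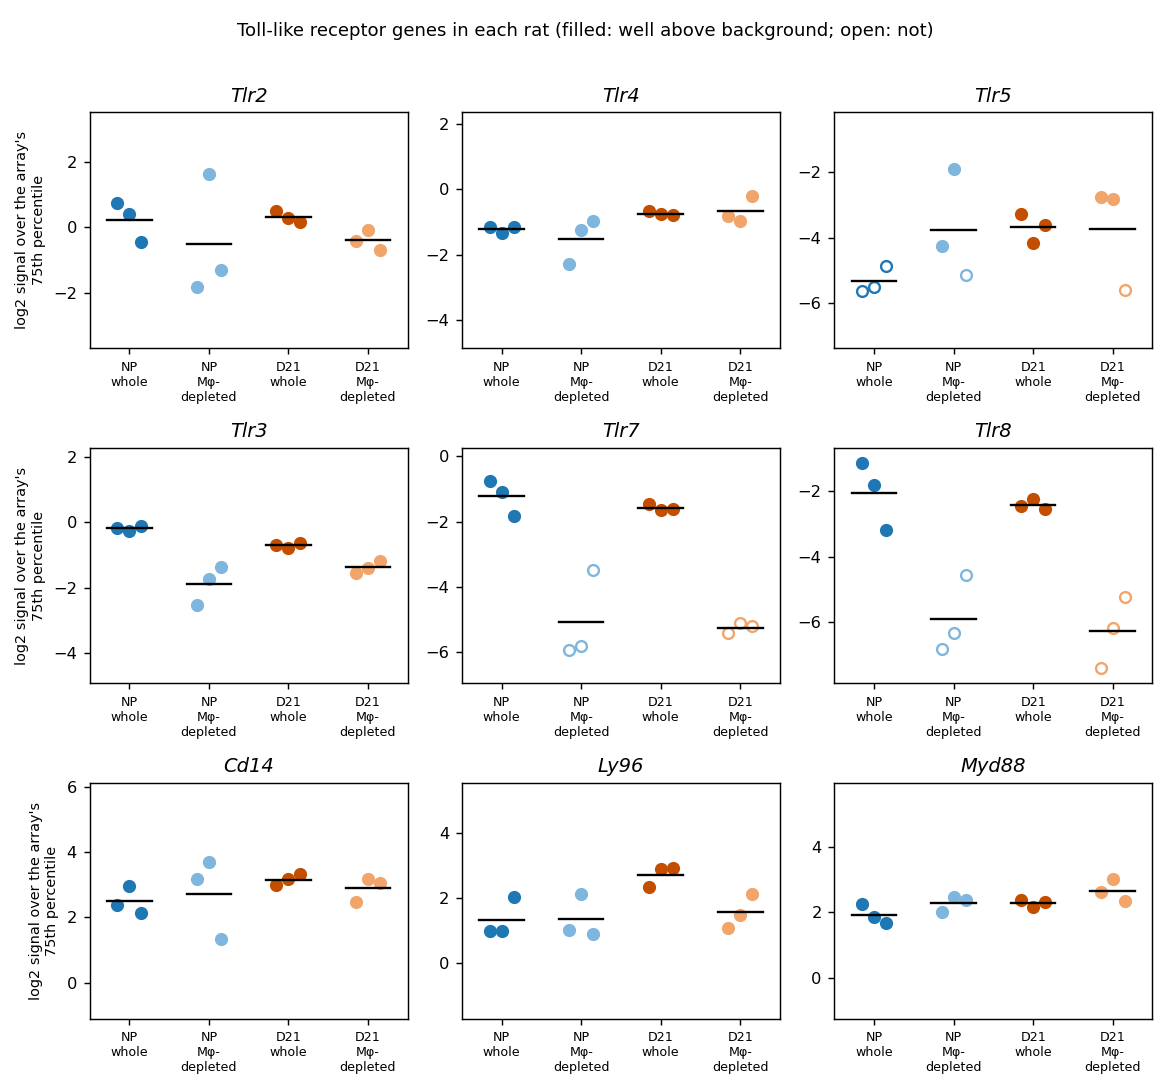
Level of each of the 9 genes in each rat, as log2 signal over the 75th percentile of the array, for whole and Mφ-depleted cervix of NP and D21 rats. Each point is a rat, lines are group means, filled points were rated well above background and open points were not. Each panel spans the same number of log2 units, so Tlr7 and Tlr8 show the widest gap between whole and depleted rats, and for Cd14 and Myd88 the whole and depleted groups overlap.

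Among the receptors for RNA, Tlr7 recognises single-stranded RNA. Its level in whole cervix was -1.45, -1.63 and -1.63 in D21 rats 5, 6 and 7, and -1.08, -1.83 and -0.76 in NP rats 8, 9 and 10. In depleted cervix it was -5.42, -5.11 and -5.20 in D21 rats 1, 2 and 4, and -5.94, -5.79 and -3.48 in NP rats 5, 6 and 7. All 6 whole arrays were well above background and none of the 6 depleted arrays was. The groups did not overlap, as was so for 44.5% of all genes tested in D21 and 47.0% in NP rats. The measured difference was 3.67 ± 0.54 on the log2 scale in D21 rats and 3.84 ± 0.54 in NP rats (SE, n = 3 rats a group), with limma adjusted p-values of 0.0015 and 0.00031. Because the depleted arrays give only a bound, the fold of whole over depleted cervix was at least 8.72 in D21 and at least 9.15 in NP rats. This bound sets the mean of the whole arrays against, for each depleted array, the lowest signal that was rated well above background on it, or the probe's own signal where that was higher. Each fold given in this text as at least some value is a bound of this kind on measured means. It takes in neither the spread between rats nor the choice of background correction, and alternatives given below yielded smaller differences.

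Tlr8, which also recognises single-stranded RNA and lies next to Tlr7 on the X chromosome, gave the same order of groups. Whole cervix had -2.46, -2.25 and -2.53 in D21 rats 5, 6 and 7, and -1.80, -3.20 and -1.14 in NP rats 8, 9 and 10. Depleted cervix had -7.40, -6.17 and -5.22 in D21 rats 1, 2 and 4, and -6.83, -6.33 and -4.55 in NP rats 5, 6 and 7. No depleted array was well above background and no whole array fell into the range of the depleted ones. The difference was 3.85 ± 0.69 in D21 and 3.86 ± 0.69 in NP rats, with limma adjusted p-values of 0.0042 and 0.0015, and the bounds on the fold were at least 4.86 and at least 5.18. NP whole rat 9 was the lowest of the whole rats for both Tlr7 and Tlr8. That rat also had the lowest mean log2 level of the Mφ list (0.86) and of the epithelial list (3.55) among whole rats. Among whole NP rats it was lowest for the neutrophil list (-3.40) as well. A link between these values was not tested.

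Whole and depleted arrays were scanned on different days except for 1 depleted rat of each kind, D21 rat 4 and NP rat 7, which shared the scan day of the 6 whole arrays. Values within that day therefore rest on 1 depleted array for each comparison, which limma assumes to vary like the other groups, and their p-values hold no replication of the depleted arm. Within that day, the log2 difference of Tlr7 was 3.63 in D21 and 2.25 in NP rats, with adjusted p-values of 0.0070 and 0.0090. The difference of Tlr8 within the day was 2.81 in D21 and 2.51 in NP rats, with adjusted p-values of 0.073 and 0.040. No depleted D21 array shared a slide with a whole D21 array, so that D21 values with the slide as a block are linked through NP arrays. With the slide as a block the D21 differences became 2.22 for Tlr7 and 1.15 for Tlr8, and with normexp background correction 0.43 and 0.44, and none of these 4 values passed the test. In NP rats the calls held with the slide as a block, at 2.73 for Tlr7 and 2.37 for Tlr8, with adjusted p-values of 0.015 and 0.016. They did not hold with normexp, at 1.36 and 1.51 with adjusted p-values of 0.151 and 0.110, or by the methods' t-test, with adjusted p-values of 0.115 and 0.087. By the methods' t-test the D21 call held for Tlr7 (adjusted p = 0.040) but not for Tlr8 (adjusted p = 0.190).

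Tlr3, the endosomal receptor for double-stranded RNA, was higher in whole than in depleted NP cervix. Its brighter probe had -0.25, -0.11 and -0.18 in NP whole rats 8, 9 and 10 and -2.54, -1.73 and -1.38 in NP depleted rats 5, 6 and 7. In D21 rats it had -0.68, -0.78 and -0.63 in whole and -1.56, -1.38 and -1.18 in depleted cervix. Neither pair of groups overlapped, as was so for 44.5% of all genes tested in D21 and 47.0% in NP rats. The NP difference was 1.70 ± 0.28, or 3.26-fold, with a limma adjusted p of 0.00080, and it was 1.20 within the shared scan day, against NP depleted rat 7 alone. By the methods' t-test the adjusted p was 0.131 and the call did not hold. The D21 difference was 0.68 ± 0.28 with an adjusted p of 0.099. Of 28 alternatives, 25 left it uncalled with the same sign and 1, the second probe, reversed the sign. The other 2 called it: array weights (0.82, limma adjusted p = 0.0041) and the shared fit without NP depleted rat 5 (limma adjusted p = 0.045). Unlike Tlr7 and Tlr8, Tlr3 stayed well above background on every depleted array by this probe.

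The second probe of Tlr3 had the same call in NP rats, with a difference of 1.33 ± 0.39 and an adjusted p of 0.023. In D21 rats it gave -0.08 ± 0.39, where depleted rats 1, 2 and 4 had -0.96, -0.17 and -1.87 and the whole rats, with a lowest value of -1.15 and a median of -1.10, lay between -1.87 and -0.96. The probes therefore differ in the sign of the D21 difference. The change on removal was smaller in D21 than in NP rats by 1.03 ± 0.40 on the log2 scale for the brighter probe (limma interaction, adjusted p = 0.193), which did not pass the test.

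Among the receptors of the cell surface, none was called after removal. Tlr2, which pairs with Tlr1 or Tlr6 to bind lipoproteins, had 0.50, 0.27 and 0.16 in whole and -0.42, -0.08 and -0.70 in depleted D21 rats, which did not overlap, in a comparison where the groups of 44.5% of all tested genes did not (47.0% in NP rats). In NP rats it had 0.41, -0.44 and 0.73 in whole cervix and -1.82, 1.63 and -1.31 in depleted cervix. The differences were 0.71 ± 0.71 and 0.73 ± 0.71, with adjusted p-values of 0.482 and 0.453. Because the groups share 1 spread in the fit, the wide depleted NP group also sets the SE in D21 rats. On the D21 arrays alone the limma adjusted p was 0.094. NP depleted rat 6 was the highest of all 12 rats, and without it the NP difference was 1.80 with an adjusted p of 0.0047. That rat also had the highest summed level of 8 neutrophil markers among the depleted rats, 6.80 against 0.41 to 0.88 in the other 5, while its mean log2 level of that list, -4.44, lay within the range of the other depleted rats, from -5.47 to -3.76.

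Tlr4, the receptor for lipopolysaccharide, had -0.68, -0.77 and -0.81 in whole and -0.82, -0.98 and -0.22 in depleted D21 rats. In NP rats it had -1.33, -1.17 and -1.14 in whole and -2.30, -1.24 and -0.99 in depleted cervix. Whole and depleted groups overlapped in both, and the differences were -0.08 and 0.30, with 95% intervals from -0.80 to 0.64 and from -0.42 to 1.01. Tlr5, the flagellin receptor, was well above background on all 3 whole D21 arrays, on 2 of 3 depleted arrays of each kind and on no whole NP array. Its levels were -3.29, -4.16 and -3.60 in whole and -2.76, -2.81 and -5.60 in depleted D21 rats, a difference of 0.04 with a 95% interval from -1.81 to 1.90. In NP rats Tlr5 was not tested.

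The co-receptors and the adaptor gave no call. Cd14 had 2.98, 3.17 and 3.33 in whole and 2.46, 3.18 and 3.06 in depleted D21 rats. In NP rats it had 2.96, 2.14 and 2.39 in whole cervix and 3.18, 3.68 and 1.33 in depleted rats 5, 6 and 7. All 4 groups followed each other with overlap between neighbours, in the order whole D21, depleted D21, depleted NP and whole NP. The difference on removal was 0.26 in D21 rats, with a 95% interval from -0.85 to 1.36, and -0.23 in NP rats, with an interval from -1.33 to 0.87. These intervals lie below those of Tlr7, from 2.48 to 4.87 in D21 and from 2.65 to 5.04 in NP rats, and they still allow whole cervix to be more than 2-fold higher in D21 rats or more than 2-fold lower in NP rats. Cd14 was set against Tlr7 with its values on removal already known, and the Tlr7 intervals rest on depleted signals below the background rating. The separation of the intervals is therefore no support. The difference between the genes was not itself tested.

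The NP value of Cd14 depended on single rats and on the scan day. Without NP depleted rat 6 it was 0.24, and within the shared scan day, where NP depleted rat 7 was the only depleted NP array, it was 1.17 with an adjusted p of 0.047. In D21 rats the value within that day was 0.10. With the slide as a block it was 0.83, with the scan day as a block 0.66 and with array weights 0.58, none of them called. An absence of change in Cd14 is therefore not shown for NP cervix, nor for D21 cervix, where the 95% interval reached 1.36.

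Ly96, which must join Tlr4 for lipopolysaccharide to bind, stood highest in whole D21 cervix, with 2.33, 2.88 and 2.92. Depleted D21 rats 1, 2 and 4 had 1.09, 1.49 and 2.13, whole NP rats 0.99, 2.03 and 1.01, and depleted NP rats 1.04, 2.14 and 0.91. Only the whole D21 group lay apart from the other groups. Its difference from depleted D21 cervix was 1.14 ± 0.41, with an adjusted p of 0.067, and the second probe, whose groups overlapped, gave 0.84 with an adjusted p of 0.128. In NP rats the difference was -0.02, with a 95% interval from -0.93 to 0.88. The D21 value passed the test without D21 depleted rat 4 (1.42, adjusted p = 0.027) and when NP depleted rat 6 was left out of the shared fit (adjusted p = 0.046), and it was 0.58 within the shared scan day.

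Myd88 had 2.39, 2.15 and 2.32 in whole and 2.62, 3.02 and 2.34 in depleted D21 rats, and 1.85, 1.68 and 2.26 in whole and 2.00, 2.48 and 2.37 in depleted NP rats. The groups overlapped, and the differences on removal were -0.37 and -0.35, with 95% intervals from -0.93 to 0.18 and from -0.90 to 0.20.

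**Figure D3:**
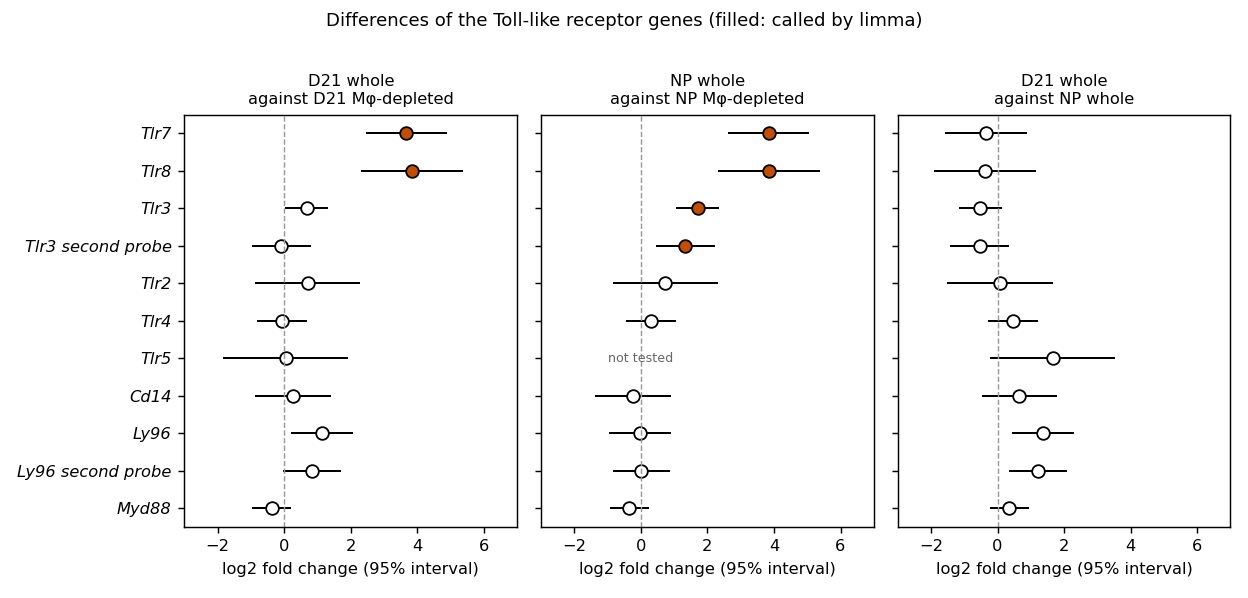
Log2 fold change with its 95% interval for each probe of the 9 genes, in D21 whole over D21 Mφ-depleted, NP whole over NP Mφ-depleted and D21 whole over NP whole cervix. Filled points passed the limma test at an adjusted p below 0.05. Tlr7 and Tlr8 lie between 3.67 and 3.86 in both removals, both probes of Tlr3 are filled in NP rats only, and no point is filled for D21 against NP whole cervix.

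Between whole D21 and whole NP cervix, limma called 0 of 9 members, where it called 5.84% of 14035 genes. At an unadjusted p below 0.05 there was 1, Ly96, and by the methods' t-test there was 1 at the threshold of the study (Tlr5) and none after Benjamini-Hochberg adjustment. Ly96 was 1.37 ± 0.41 higher in D21 rats, or 2.58-fold, with an adjusted p of 0.078, and the second probe gave 1.21 with an adjusted p of 0.088. Without NP whole rat 9 the value was 1.71 (adjusted p = 0.038), without NP depleted rat 6 its adjusted p was 0.048, and on the 6 whole arrays alone it was 0.038. On these arrays alone Tlr5 and Tlr3 were called as well, with adjusted p-values of 0.021 and 0.0497. The whole D21 arrays shared slide 4 with NP whole rat 10 only. With the slide as a block the differences of Ly96, Tlr5 and Tlr3 were 1.70, 1.95 and -0.52, with limma adjusted p-values of 0.251, 0.312 and 0.592. In the same comparison 5 of 8 epithelial markers were higher in whole D21 cervix, with a median of 1.68, and their part in these values was not tested. Tlr5 was -5.52, -4.86 and -5.63 in whole NP rats, all below the background rating, against which whole D21 cervix was higher at least 1.28-fold, with a measured difference of 1.66 ± 0.85 and an adjusted p of 0.273.

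Tlr7 and Tlr8, called on removal, differed by -0.35 and -0.37 between whole D21 and whole NP cervix, with overlapping groups and 95% intervals from -1.54 to 0.84 and from -1.88 to 1.14. Cd14 was higher in whole D21 than in whole NP cervix by 0.66 ± 0.50, with no overlap of the groups and an adjusted p of 0.464. The same difference was -0.52 for Tlr3, 0.46 for Tlr4, 0.08 for Tlr2 and 0.36 for Myd88, none of them called in the fit over all 12 arrays. The groups of 5 members did not overlap, and neither did those of 44.3% of all genes tested.

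Between depleted D21 and depleted NP cervix, 0 of 6 members tested were called by limma and by the methods' t-test, where limma called 4.59% of 13389 genes. At an unadjusted p below 0.05 there was 1, Tlr4, which was 0.84 ± 0.33 higher in D21 rats with an adjusted p of 0.170. Of 7 fibroblast markers, 6 were higher in depleted D21 than in depleted NP cervix, with a median of 2.67, as were 3 of 7 smooth muscle markers, and their part in the value of Tlr4 was not tested. In the interaction, which asks whether the change on removal differs between D21 and NP rats, limma called 0 of 9 members and 2.39% of 14544 genes, and 1 member, Tlr3, had an unadjusted p below 0.05. The change of Cd14 on removal differed between D21 and NP rats by 0.49, with a 95% interval from -1.08 to 2.06, and that of Ly96 by 1.16, with an interval from -0.13 to 2.45.

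Since Tlr7 and Tlr8 changed together, the 250 bases before their start sites are shown beside those of Cd14, from the RefSeq promoter table in the GRCr8 build, which held 9 of the 10 genes. Capitals mark matches, on either strand, to GAGGAA, the core bound by the myeloid factor PU.1, and to TTGCNNAA, a sequence bound by C/EBP factors. The matches do not overlap each other.
Tlr7 (chrX:30644176-30644425, plus strand): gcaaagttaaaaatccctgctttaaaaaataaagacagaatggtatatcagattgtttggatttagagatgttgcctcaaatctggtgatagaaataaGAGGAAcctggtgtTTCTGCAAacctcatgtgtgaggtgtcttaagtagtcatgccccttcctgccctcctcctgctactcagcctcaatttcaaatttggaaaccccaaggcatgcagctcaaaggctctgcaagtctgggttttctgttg
Tlr8 (chrX:30708476-30708725, plus strand): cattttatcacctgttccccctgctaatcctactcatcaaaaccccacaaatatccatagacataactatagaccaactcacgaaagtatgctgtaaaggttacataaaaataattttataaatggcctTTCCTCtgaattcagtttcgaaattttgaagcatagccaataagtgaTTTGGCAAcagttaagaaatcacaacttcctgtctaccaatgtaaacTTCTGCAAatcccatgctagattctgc
Cd14 (chr18:28611159-28611408, minus strand): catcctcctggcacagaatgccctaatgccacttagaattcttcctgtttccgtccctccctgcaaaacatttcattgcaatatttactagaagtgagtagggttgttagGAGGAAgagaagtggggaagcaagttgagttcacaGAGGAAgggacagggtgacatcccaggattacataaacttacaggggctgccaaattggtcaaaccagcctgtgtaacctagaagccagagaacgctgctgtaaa
GAGGAA was found in the promoters of Tlr7, Tlr8, Cd14, Tlr3 and Tlr4, and in 23.3% of all 33469 promoters of this length. TTGCNNAA was found in those of Tlr7 and Tlr8 and in 9.22% of all. Of the other letters searched, TGANTCA (AP-1, 6.34% of promoters) and the interferon-stimulated response element (3.41%) were found in Myd88, and the NF-kB motif (0.314%) in none of the 9. A match is a description of the letters and no evidence of binding.

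The rest of the pathway was taken from a list of 71 genes, of which 64 had a probe. In D21 rats, whole exceeded depleted cervix in 6 of 47 genes tested and lay under it in 10, with a median log2 difference of 0.19 against -0.06 over all genes tested, of which 22.4% were called and 11.9% were higher. In NP rats 9 of 46 tested were higher and 13 lower, with a median of -0.44 against -0.04, where 32.8% of all genes were called and 16.9% were higher. Of 34 calls of named pathway genes over all comparisons, 23 were lost with the slide as a block, 12 with the scan day as a block and 22 with normexp. By the methods' t-test, 29 of 33 were lost after Benjamini-Hochberg adjustment and 23 of 33 at the threshold of the study.

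Genes higher in whole cervix included other receptors and partners. Ly86, which pairs with the Tlr4-like receptor Cd180, had -0.08, 0.16 and -0.04 in whole D21 rats and -5.82, -5.15 and -5.80 in depleted ones, a fold of at least 26.2. In NP rats the difference of Ly86 was 6.12 with an adjusted p of 1.5e-06, where 1 of 3 depleted arrays was well above background. Cd36, a scavenger receptor that assists Tlr2, was 2.06 higher in D21 and 1.17 higher in NP whole cervix. Tlr6, the partner of Tlr2, was higher by 1.68 in NP cervix (adjusted p = 0.0045) and by 1.06 in D21 cervix (adjusted p = 0.056). Unc93b1, which carries Tlr3, Tlr7 and Tlr8 to the endosome, was higher by 1.55 in whole NP cervix (adjusted p = 0.030), and was well above background on all 12 arrays. Tlr9 reached the background rating on none of the 12 arrays.

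Among the kinases and ubiquitin ligases, 3 of 14 tested were higher and 3 lower in whole D21 cervix, against 1 higher and 4 lower of 13 in NP rats. Of all genes tested, 22.4% were called in D21 rats and 32.8% in NP rats, with 11.9% and 16.9% higher. Counts this small are no result about the role. Btk, a kinase of B cells and myeloid cells, stayed under the background rating on all depleted arrays, and whole cervix exceeded them at least 3.77-fold in D21 and at least 6.88-fold in NP rats. Irak1, which acts just after Myd88, and Chuk, a kinase of the NF-kB pathway, were higher by 1.11 and 1.36 in whole D21 cervix, and Peli1, a ubiquitin ligase, differed by -1.49. In NP rats Ikbke differed by -1.84 and Traf3 by -1.19. Of 7 transcription factors, Irf3, which acts after Tlr3 and Tlr4, was lower in whole cervix, with a difference of -1.57 for D21 and -1.86 for NP rats. Nfkb2 differed by -1.25 in NP rats.

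Of the targets of the pathway, 1 of 8 tested was higher and 4 lower in whole D21 cervix, against 3 higher and 2 lower of 9 in NP rats. Of the inhibitors, 2 of 11 tested were lower and none higher in D21 rats, and 5 of 10 were lower and 1 higher in NP rats. Over all genes tested, 22.4% were called in D21 rats (11.9% higher) and 32.8% in NP rats (16.9% higher). The counts of targets and inhibitors are too small to be a result about these roles. Nfkbia, which holds NF-kB in the cytoplasm, was lower in whole cervix, with a difference of -2.46 for D21 and -1.65 for NP rats. Zc3h12a, which degrades cytokine messages, differed by -1.73 and -3.04. The chemokine Cxcl1 had -1.37, -4.95 and -4.45 in whole and 2.77, 3.52 and 1.28 in depleted D21 rats, a difference of -6.11, and -5.17 in NP rats. Cxcl2 differed by -6.30 and -3.55, while Cxcl10 (-2.68) and Il1a (-3.11) were called in D21 rats. Higher in whole cervix were Ccl5, by 2.02 in D21 and 3.55 in NP rats, and, in NP rats, Il1b by 1.93, Socs1 by 1.62 and Il12a, which was at least 6.66-fold higher. Part of these arrays gave signals below the background rating. Cxcl1 and Cxcl2 were well above it on 1 of 3 whole arrays of each kind, Ccl5 and Il1b on 2 of 3 depleted arrays of each kind, Il1a on 2 of 3 whole D21 arrays and Zc3h12a on 2 of 3 whole NP arrays. The immediate-early genes, given above, were lower in whole cervix in the same comparisons as Cxcl1 and Nfkbia, and their part in these differences was not tested.

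**Figure D4:**
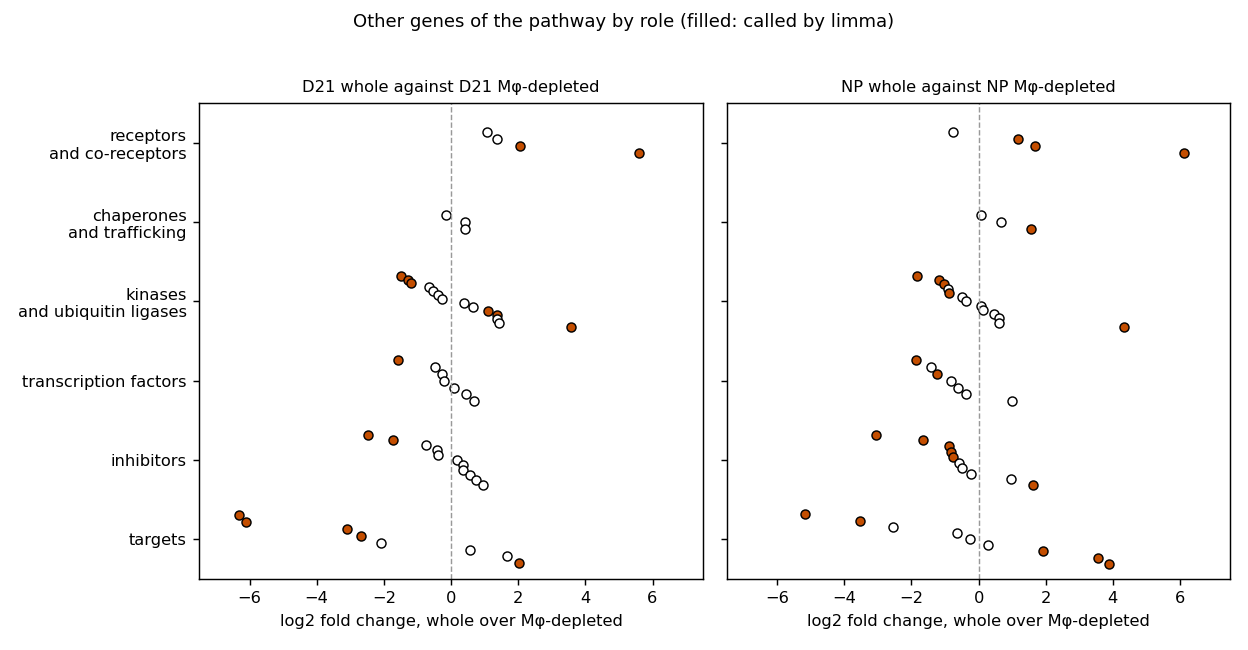
Log2 fold change, whole over Mφ-depleted cervix, of the other tested genes of the pathway by role, in D21 rats on the left and NP rats on the right. Each point is a gene, filled where limma called it. Ly86 lies farthest to the right, at 5.61 and 6.12, and the chemokines Cxcl1 and Cxcl2 lie farthest to the left.

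Between whole D21 and whole NP cervix 1 of 46 genes of the list tested was called, where limma called 5.84% of all genes. Between the depleted groups 1 was higher and 1 lower of 42 tested, where 4.59% of all genes were called. These counts are no result about the pathway. Il12a was lower in whole D21 than in whole NP cervix, where NP was at least 5.63-fold higher. In depleted cervix Il1rl1, a receptor that restrains Toll-like receptor signalling, was higher in D21 rats at least 2.16-fold, and Traf3 was lower in D21 rats, with a difference of -1.27.

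The genes whose levels followed each member most closely over the 12 arrays, among 10903 genes well above background on all of them, are given as a description, since the arrays share groups and scan days. Tlr3 ran with Sgce (r = 0.980), Wipf1 (r = 0.979) and Grb10 (r = 0.967). Tlr2 ran with Samd9 (r = 0.954), Sod2 (r = 0.917) and Ncf4 (r = 0.910), and Tlr4 with Cd68 (r = 0.897), Tdrd7 (r = 0.885) and Alcam (r = 0.872). Cd14 had lower values, with Alg1 (r = 0.839), Fnbp1 (r = 0.814) and Pold3 (r = 0.798). Ly96 ran with the transcript DY472100 (r = 0.934), Wdr72 (r = 0.907) and Slco1a5 (r = 0.904), and Myd88 with the unnamed probe A_64_P027268 (r = 0.925), P2ry2 (r = 0.922) and Ermp1 (r = 0.921). Between Tlr4 and its co-receptors r was -0.06 for Cd14 and 0.48 for Ly96.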

How the data were processed

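Each array held cRNA of 1 rat in 1 colour. The authors deposited the intensity of each spot as Agilent Feature Extraction 9.5.3.1 processed it, with background subtracted and no normalization between arrays, and a table of the ratio of each intensity to the 75th percentile of its array. Spots of a probe were averaged without control and outlier spots, and the log2 of the 75th percentile was subtracted. On each array 44.9% to 61.7% of probes were well above background. The brightest probe stood for a gene. Groups were compared with limma 3.58.1 in R 4.3.3 over all 12 arrays, with Benjamini-Hochberg adjustment over genes rated well above background throughout at least 1 of the groups compared, and the scripts were tested on simulated data. Welch's test, named in the study's Methods, is called the methods' t-test. Figures and tables used Python 3.11.15 with pandas 2.3.3 and matplotlib 3.10.9. RefSeq accessions named 17328 probes. Named genes are all members, genes of the pathway list called in a comparison (at most 8 in each direction), Csf1r, Adgre1 and Cd68, and the 3 closest genes by correlation. Genes named outside this rule were chosen after their values were seen. The members and lists were chosen with earlier results of these data known. The alternatives are those of the closing section.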

Additional observations from a re-analysis of the deposited data

Results flagged for a closer look

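The change of Traf3 on Mφ removal differed between D21 and NP rats. Whole cervix had -0.31, -0.40 and -0.46 in D21 rats 5, 6 and 7 and -0.44, -0.76 and -0.87 in NP rats 8, 9 and 10, and depleted cervix had -1.10, -0.60 and -0.60 in D21 rats 1, 2 and 4 and 0.36, 0.63 and 0.51 in NP rats 5, 6 and 7. The interaction was 1.57 ± 0.31 on the log2 scale (SE, limma adjusted p = 0.029). Traf3 is a ubiquitin ligase that acts after the Toll-like receptors of the endosome. It was the 1 gene of the pathway list called in the interaction out of 49 tested, where 2.39% of all genes were called. The fibroblast markers, 5 of 7, and the smooth muscle markers, 4 of 7, were called in the interaction as well, with the opposite sign, and their part in the value of Traf3 was not tested. The call was lost under 12 of 25 alternatives, including the slide as a block (1.59, adjusted p = 0.132), the shared scan day (1.42, adjusted p = 0.163) and the mean of its 2 probes (0.83, adjusted p = 0.501), and when NP depleted rat 5 or 6, D21 depleted rat 1, NP whole rat 10 or any whole D21 rat was left out (values from 1.40 to 1.64, adjusted p from 0.056 to 0.092).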

How the results depend on the processing

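The design limits these comparisons: with 3 rats a group, depletion runs along with additional handling, largely with the scan day and, in D21 rats, with the slide. Signal near background sets the size of the Tlr7 and Tlr8 differences. Of 133 recomputed counts of members called, 112 stayed within 1.5 times the count reported, and 735 of 806 fold changes of members kept their direction and side of the threshold. In whole against depleted D21 cervix the count of 2 became 1 by the methods' t-test before and after adjustment and within the shared scan day, 0 with normexp, with the slide as a block and where only genes well above background on every array were tested (which leaves out Tlr7 and Tlr8), and 4 with array weights. In NP rats the count of 3 became 0 by the methods' t-test before and after adjustment, 1 with normexp and with the filter on every array, and 5 within the shared scan day. Between whole D21 and NP cervix the count of 0 became 1 by the methods' t-test and by limma at the threshold of the study, 2 with array weights, and 3 on the arrays compared only and within the shared scan day. Array weights also gave 1 call between depleted groups and 2 in the interaction. Leaving out each rat gave 2 to 3 calls in D21 removal, 3 to 4 in NP removal, 0 to 1 between whole groups, and 0 in the other comparisons. No call of Tlr7, Tlr8 or Tlr3 on removal was lost when a rat was left out. Values that changed sign were not called in the results above. For Tlr2 between whole groups they were -0.027 (normexp), -0.16 (array weights), -0.42 (slide) and -0.26 to 0.33 (rats left out). For Tlr8 between whole groups they were 0.011 (normexp) and -0.94 to 0.081 (rats left out). In D21 removal the second probe gave -0.083 for Tlr3, Tlr4 gave 0.071 (normexp), 0.11 (percentile over probes above background on all arrays), 0.048 (array weights) and -0.23 to 0.15 (rats left out), Tlr5 gave -0.46 (normexp), -0.74 (array weights) and -0.89 to 0.53 (rats left out), and Cd68 gave 0.089 (normexp), 0.044 (percentile) and -0.75 to 0.39 (rats left out). In NP removal the slide, the scan day as a block and the shared scan day gave -0.25, -0.22 and -0.22 for Tlr4, 0.65, 0.60 and 1.17 for Cd14, 0.22, 0.054 and 0.43 for Ly96, and -0.74, -0.55 and -0.22 for Cd68, and leaving out rats gave -0.10 to 0.56, -0.93 to 0.24, -0.36 to 0.37 and -0.10 to 0.93. Ly96 also gave 0.016 with quantile normalization, 0.030 with the percentile over probes above background and 0.017 by the second probe. The interaction of Cd14 was -1.07 within the shared scan day. The cause of these changes was not tested. Of 900 recomputed fold changes of the pathway genes, 683 kept their call and none reversed. No paired analysis was possible because the groups compared share no rat numbers.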
